A study of Mus musculus with 6 samples.

Results

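The HoxC cluster is 1 of the groups of linked homeobox genes that give cells of the body axis their position. Its members were taken as the genes whose symbol is Hoxc and a number, each read through the probe set with that symbol alone, and 9 of the 19938 genes measured met this rule: Hoxc4, Hoxc5, Hoxc6, Hoxc8, Hoxc9, Hoxc10, Hoxc11, Hoxc12 and Hoxc13. Each had 1 probe set, so no choice between probe sets was needed. RNA of the ascending aorta and of the descending aorta was read on Affymetrix arrays, 3 for each segment, which the labels call biological replicates. All embryos were untreated, wild type and of the C57BL/6 strain, taken at 13.5 days postcoitum. The study asked for expression profiles that go with the embryonic origin of the vessel wall, which is largely neural crest in the ascending and mesoderm in the descending aorta. The labels name no embryo, litter or pool behind an array, so every p-value rests on the spread among these arrays alone, which may be technical.

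Hox genes are switched on in their order along the chromosome. Genes at the 3′ end of a cluster are active early and far toward the head, and genes at the 5′ end are active later and toward the tail. The proteins are transcription factors that bind DNA through a homeodomain, often together with cofactors of the Pbx and Meis families. In the mouse trunk the 3′ members of HoxC mark neck and thoracic levels, and the 5′ members mark lumbar, sacral and tail levels and act in the hindlimb, hair and nails.

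Values are log2 expression after RMA, an array method that removes background, makes the arrays' distributions alike and sums up its probes. The medians of the arrays ran from 7.14 to 7.22, and precision is limited by how few arrays there are. RMA gives no call of absence, so the 95th percentile of 1015 olfactory receptor genes, which are silent in most tissues, served as a rough ceiling of unexpressed genes. It lay between 6.24 and 6.42 on the 6 arrays. All 7 smooth muscle markers of a fixed list were above this ceiling on every array, with summed linear signals of 23896 to 29144 in ascending and 26056 to 26730 in descending aorta. The array labelled ascending aorta replicate 3 stood apart from its group, since across genes it correlated at 0.993, 0.997 and 0.997 with descending replicates 1, 2 and 3, and at 0.991 and 0.986 with ascending replicates 1 and 2. Ascending replicate 1 in turn correlated at 0.993 with ascending replicate 2 and at 0.987 to 0.991 with the descending arrays. Results are therefore given with and without it, under its own label. Because its own values led to its being left out, p-values from the 5 other arrays are likely too small.

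Besides the 9 protein-coding genes the cluster holds microRNA genes, of which Mir196a-2 lies between Hoxc10 and Hoxc9 and Mir615 within the span of Hoxc5. Their mature sequences are shown because miR-196 is a known repressor of Hox mRNAs, that of Hoxc8 among them, and because both genes have probe sets on the array. The sequences are from RefSeq (GRCm38.p6), 5′ to 3′, with the seed, bases 2 to 8, in capitals.
miR-196a-5p (chr15:102973365-102973386, plus strand): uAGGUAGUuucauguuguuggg
miR-196a-2-3p (chr15:102973401-102973422, plus strand): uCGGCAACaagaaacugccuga
miR-615-5p (chr15:103014926-103014947, plus strand): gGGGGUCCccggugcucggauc
miR-615-3p (chr15:103014969-103014990, plus strand): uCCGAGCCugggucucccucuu
The miR-196a-5p seed is shared by 2 mature microRNAs of the RefSeq table, miR-196a-5p itself and miR-196b-5p of the HoxA cluster. Counted from 1 at the 5′ end, these differ by the single substitution A12C, outside the seed.
miR-196b-5p (chr6:52230129-52230150, minus strand): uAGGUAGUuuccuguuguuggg

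On 2 of the 3 ascending arrays the 3′ part of the cluster read lower than in descending aorta, and the 5′ part did not. Relative to the descending mean, Hoxc4, Hoxc5, Hoxc6 and Hoxc8 read between -3.22 and -1.09 on ascending replicates 1 and 2. On ascending replicate 3 the same 4 genes read between -0.0097 and 0.48 relative to that mean. Hoxc9 read -0.52 and -0.25 on ascending replicates 1 and 2, and Hoxc10 to Hoxc13 lay within 0.12 of that mean on both arrays. The descending means of Hoxc10 to Hoxc13 were 5.98 to 6.34, at or near the ceiling of unexpressed genes, so these genes had little room to read lower. Over all 6 arrays no HoxC gene passed limma's test at an adjusted p of 0.05, and neither did any other gene (0.0% of 19938, though at an unadjusted p under 0.05 limma had 790 genes higher and 1062 lower). With ascending replicate 3 left out, 412 genes rose and 521 fell, among which were 4 of the 9 HoxC genes, all lower, where 2.61% of all genes were lower. The arrays measure RNA of whole vessel segments, so fewer expressing cells and less RNA per cell cannot be told apart.

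**Figure D1:**
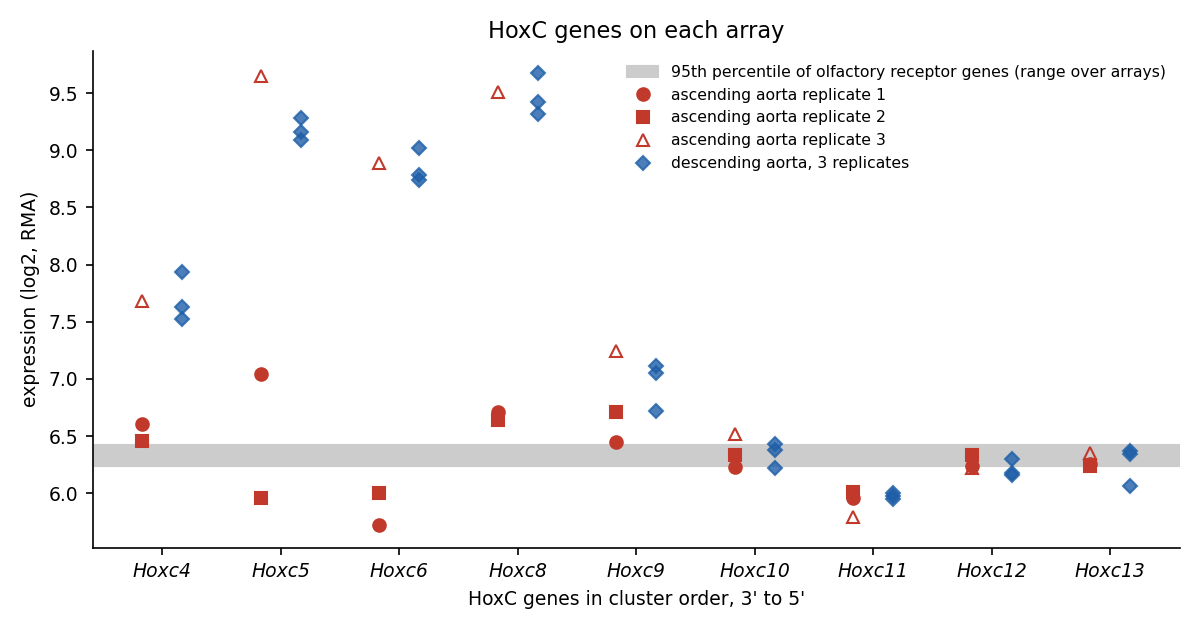
Log2 expression (y axis) of the 9 HoxC genes in cluster order (x axis), 1 point for each array, with ascending aorta left in red and descending aorta right in blue. The grey band is the range over arrays of the 95th percentile of olfactory receptor genes, 6.24 to 6.42; ascending replicate 3 (open triangles) lies with the descending arrays from Hoxc4 to Hoxc8.

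Hoxc4, the 3′-most member, acts in the neck and upper thoracic vertebrae. It read 6.602, 6.46 and 7.68 in ascending aorta replicates 1, 2 and 3, against 7.93, 7.52 and 7.63 in descending replicates 1, 2 and 3. Ascending replicates 1 and 2 were the lowest 2 arrays and lay just above the ceiling of unexpressed genes, while ascending replicate 3 lay inside the descending range. The mean was 6.91 ± 0.67 in ascending and 7.69 ± 0.21 in descending aorta (SD, n = 3 each). The difference of -0.78 ± 0.30 (SE) did not pass over 6 arrays (adjusted p = 0.53 by limma). With ascending replicate 3 left out the gene fell by 1.16 ± 0.13 (SE) on the log2 scale, or 2.24-fold (adjusted p = 0.00331 by limma).

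Hoxc5, its neighbour, read 7.05, 5.96 and 9.65 in ascending replicates 1, 2 and 3, against 9.28, 9.16 and 9.09 in descending aorta. Ascending replicates 1 and 2 differed from each other by 1.09 here, the widest gap between them among the 9 genes, and only replicate 2 lay below the ceiling. Ascending replicate 3 was above all 3 descending arrays. The ascending mean was 7.55 ± 1.90 and the descending mean 9.18 ± 0.10 (SD, n = 3 each), a difference of -1.62 ± 0.80 (SE) with an adjusted p of 0.559 by limma. On the 5 other arrays it fell by 2.68 ± 0.27 (SE, adjusted p = 0.00188 by limma). Since 1 of the 2 ascending arrays was below the ceiling, the fold is given with that array raised to its ceiling, where the mean was 5.80-fold lower. Ascending replicate 1, above its ceiling, read -2.13 relative to the descending mean, so 5.80 is no lower bound for each array. The 95% confidence interval of the difference on these 5 arrays was -3.30 to -2.05. Without ascending replicate 2 the difference was -0.83.

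Hoxc6, whose expression marks the border between neck and thoracic levels, read 5.72, 6.00 and 8.89 in ascending replicates 1, 2 and 3, against 9.02, 8.79 and 8.74 in descending aorta. It was the one HoxC gene that both ascending replicates 1 and 2 read below the ceiling while all 3 descending arrays read it above. The means were 6.87 ± 1.75 in ascending and 8.85 ± 0.15 in descending aorta (SD, n = 3 each). The difference was -1.98 ± 0.74 (SE) over 6 arrays (adjusted p = 0.53 by limma). Leaving out ascending replicate 3 gave -2.99 ± 0.13 (SE, adjusted p = 8.75e-05 by limma). Both ascending arrays then lay below the ceiling, so the fold is a bound: with each raised to its array's ceiling, the mean was 6.28 in ascending and 8.85 in descending aorta, at least 5.94-fold lower in ascending aorta.

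Hoxc8, a gene of the thoracic vertebrae and ribs and of forelimb motor neurons, read 6.71, 6.64 and 9.51 in ascending replicates 1, 2 and 3, against 9.67, 9.31 and 9.42 in descending aorta. Ascending replicates 1 and 2 lay 0.07 apart, and ascending replicate 3 lay inside the descending range. The means were 7.62 ± 1.63 in ascending and 9.47 ± 0.18 in descending aorta (SD, n = 3 each), a difference of -1.85 ± 0.70 (SE) with an adjusted p of 0.53 by limma. In the fit to the 5 other arrays the gene fell by 2.79 ± 0.12 (SE), or 6.93-fold (adjusted p = 8.75e-05 by limma). Both ascending arrays still read Hoxc8 above the ceiling, where Hoxc6 was below it.

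Hoxc9, which sets thoracic motor neuron identity in the spinal cord, was the last member toward the 5′ end that stood above the ceiling on all 6 arrays. It read 6.45, 6.71 and 7.24 in ascending replicates 1, 2 and 3, against 7.05, 7.11 and 6.72 in descending aorta. Ascending replicates 1 and 2 were the lowest 2 arrays, but replicate 2 and descending replicate 3 were nearly level, and ascending replicate 3 was the highest of all. The means were 6.80 ± 0.41 in ascending and 6.96 ± 0.21 in descending aorta (SD, n = 3 each). The difference was -0.16 ± 0.20 (SE) over 6 arrays, and 0.01 without ascending replicate 1. Without ascending replicate 3 it was -0.38 ± 0.14 (SE), which did not pass (adjusted p = 0.213 by limma).

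The 5′ members lay at or near the ceiling of unexpressed genes in both segments. Hoxc10, a gene of lumbar motor neurons and the hindlimb, read 6.23, 6.33 and 6.51 in ascending replicates 1, 2 and 3, against 6.37, 6.43 and 6.22 in descending aorta, and was above the ceiling on 2 ascending and 1 descending arrays. Hoxc11, which acts in the hindlimb and lumbosacral cord, lay between 5.79 and 6.01 in ascending and between 5.95 and 6.00 in descending aorta, below the ceiling on all 6 arrays. Hoxc12 lay between 6.22 and 6.33 in ascending and between 6.16 and 6.30 in descending aorta. Hoxc13, known for its control of hair and nail keratins, lay between 6.24 and 6.35 in ascending and between 6.07 and 6.37 in descending aorta. For these 4 genes the groups overlapped and the differences ran from -0.06 to 0.05. The 95% confidence intervals of the differences were -0.22 to 0.25 for Hoxc10, -0.25 to 0.14 for Hoxc11, -0.13 to 0.23 for Hoxc12 and -0.22 to 0.26 for Hoxc13. A difference that misses the threshold in genes this dim does not show that the segments are alike.

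**Figure D2:**
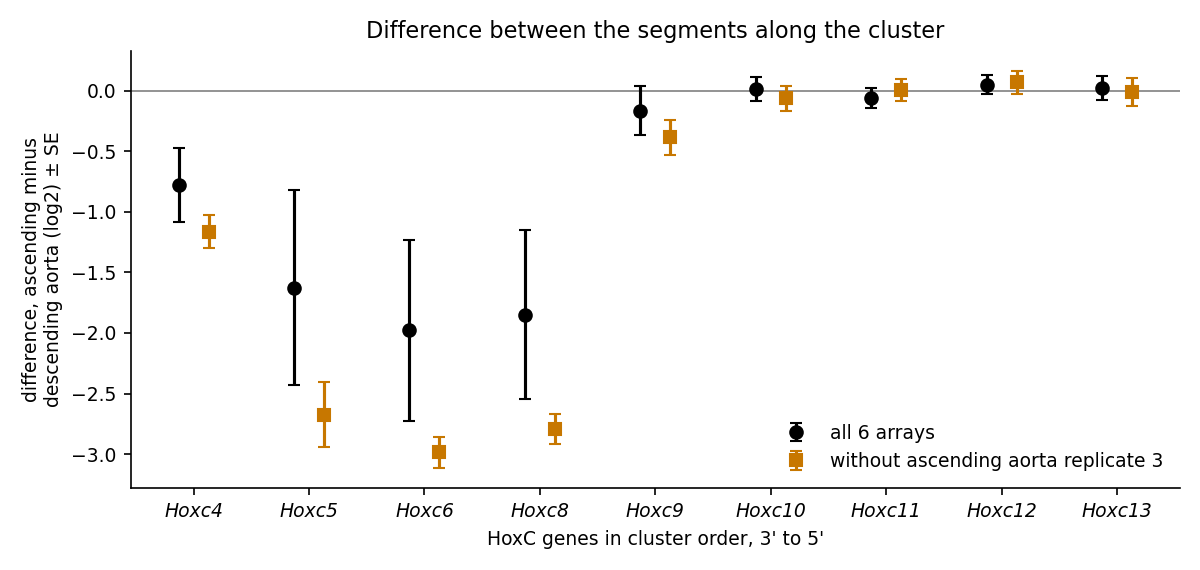
Difference between ascending and descending aorta (y axis, log2, ascending minus descending, bars are the SE of limma's fit) for the 9 HoxC genes in cluster order (x axis), from all 6 arrays (black) and without ascending replicate 3 (orange). The differences without that array run from -1.16 at Hoxc4 through -2.99 at Hoxc6 to -0.38 at Hoxc9 and lie between -0.06 and 0.07 from Hoxc10 on. With ascending arrays below their ceiling raised to it, the fall is 2.54 for Hoxc5 and 2.57 for Hoxc6, against 2.79 for Hoxc8.

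As a group the 9 genes had a median difference of -0.16 over 6 arrays, where the median of all genes was -0.02, and 6 of the 9 had a lower mean in ascending aorta. An unadjusted p under 0.05 with a lower mean was found for 3 members, Hoxc4, Hoxc6 and Hoxc8, and for 5.33% of all genes. The 3 ascending arrays lay wholly below the 3 descending arrays for 0 of the 9 members and for 8.95% of all genes. Without ascending replicate 3 the median was -0.38 for the members and -0.02 for all genes. The 2 remaining ascending arrays lay below all 3 descending arrays for 5 of the 9 members, Hoxc4 to Hoxc9, and for 18.9% of all genes. A fall of at least 2-fold that passed the test was found for Hoxc4, Hoxc5, Hoxc6 and Hoxc8, and for 0.792% of all genes. With descending replicate 1 left out as well, these 4 genes passed again, at differences of -1.04, -2.62, -2.90 and -2.69 and adjusted p-values of 0.0114, 0.0197, 0.0023 and 0.00172 by limma, where 1.18% of all genes were lower.

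The step between neighbours was largest from Hoxc8 to Hoxc9. The value of Hoxc8 minus that of Hoxc9 averaged 0.82 ± 1.26 in ascending and 2.51 ± 0.27 in descending aorta (SD, n = 3 each), so the difference between segments changed by -1.69 from 1 gene to the next. This was 1 of 8 neighbouring pairs compared, and none passed a two-sided exact permutation test (p = 0.2 for this pair, and 0.8 for every pair after Benjamini-Hochberg adjustment over the 8). The test cannot give a p below 0.1 with 3 arrays against 3. Without ascending replicate 3 the change was -2.41 at this pair (exact p = 0.2, the smallest that 2 arrays against 3 allowed). At the other end Hoxc4 and Hoxc5 differed in the same way by 1.51 without that array (exact p = 0.2). The members of these pairs did not have equal room to fall before reaching the ceiling of 6.24 to 6.42. In descending aorta Hoxc9 averaged 6.96 and Hoxc8 9.47, and Hoxc4 averaged 7.69 and Hoxc5 9.18. The part of this in the steps was not tested.

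The genes on either side of the cluster were read from the same arrays. Of the 10 nearest named protein-coding genes, 5 on each side, 9 were measured, and their median difference was -0.04 over 6 arrays and -0.03 without ascending replicate 3. None passed over 6 arrays, and 1, Tarbp2, had an unadjusted p under 0.05 by limma, with a higher mean. At that threshold 3.96% of all genes were higher and 5.33% were lower. The groups did not overlap for 2 that were higher, Tarbp2 and Smug1, and for 1 that was lower, Cbx5, where 14.8% of all genes did not overlap in either direction. Tarbp2, a partner of the microRNA-processing enzyme Dicer, read 9.81, 9.79 and 9.49 in ascending replicates 1, 2 and 3, against 9.36, 9.37 and 9.39 in descending aorta. It differed by 0.32 ± 0.10 (SE) over 6 arrays and rose by 0.43 without ascending replicate 3 (adjusted p = 0.0327 by limma), as 2.07% of all genes did. With descending replicate 1 left out as well it differed by 0.42 and did not pass (adjusted p = 0.0791 by limma). Cbx5, which encodes the heterochromatin protein HP1 alpha, differed by -0.15, the transcription factor gene Atf7 by -0.20 and Nfe2, a transcription factor gene of red cell and platelet precursors, by -0.11.

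**Figure D3:**
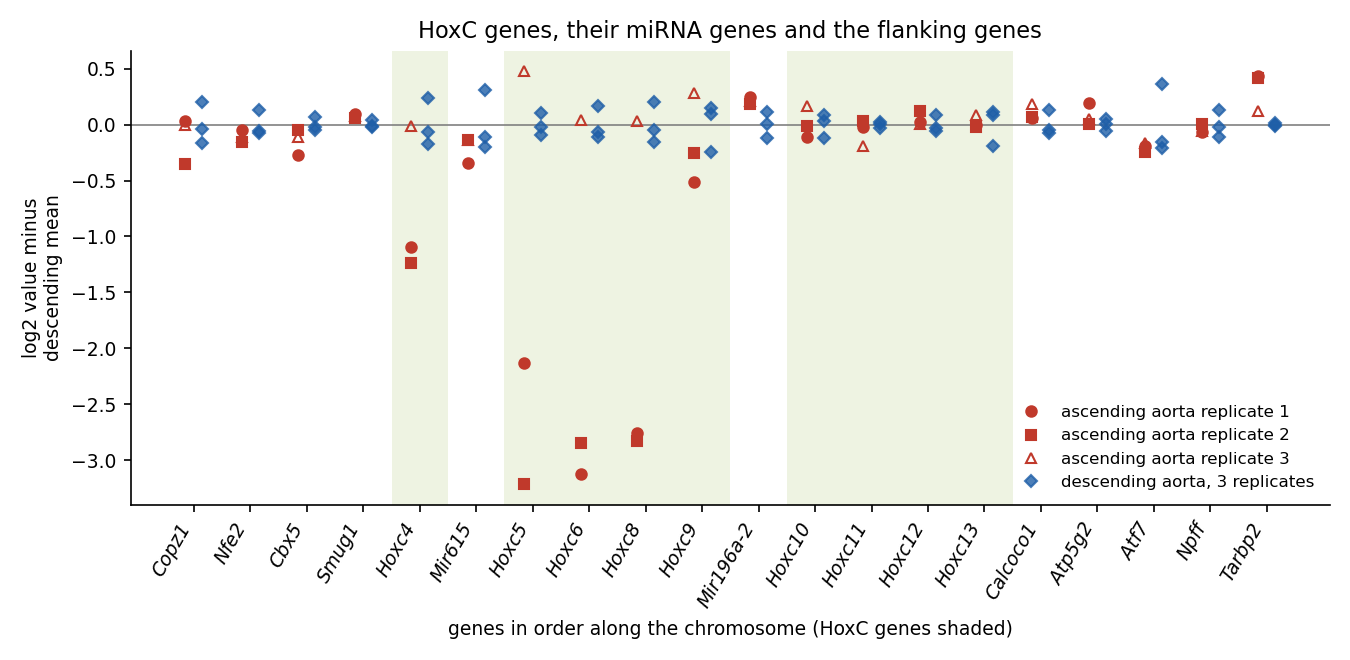
Log2 value minus the descending mean (y axis) for the HoxC genes (shaded), the 2 microRNA genes and 9 flanking genes in their order along the chromosome (x axis, not to distance), with ascending arrays left in red and descending arrays right in blue. On ascending replicates 1 and 2 the values more than 1 unit below the descending mean are those of Hoxc4, Hoxc5, Hoxc6 and Hoxc8, with Mir615 between them near 0.

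The probe set of Mir615 read 7.97, 8.17 and 8.17 in ascending replicates 1, 2 and 3, against 8.62, 8.11 and 8.20 in descending aorta. It differed by -0.21 ± 0.14 (SE), while Hoxc5, whose span holds it, differed by -1.62 ± 0.80 (SE), and descending replicate 1 was its highest array. The probe set of Mir196a-2 read 5.21, 5.15 and 5.17 in ascending replicates 1, 2 and 3, against 4.85, 5.07 and 4.96 in descending aorta. The groups did not overlap, at a difference of 0.22 ± 0.084 (SE, adjusted p = 0.53 by limma), but every value lay below the ceiling of unexpressed genes. The array reads the gene's transcript, not the mature microRNA printed above. The other 2 miR-196 genes were below the ceiling on all arrays too, Mir196a-1 at 4.95 to 5.01 in ascending and 4.99 to 5.11 in descending aorta, and Mir196b at 5.80 to 6.05 in ascending and 6.00 to 6.26 in descending aorta.

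The start of Hoxc4 is shown as the one HoxC promoter matched, out of 9 genes looked up, and because its gene moved with Hoxc5, Hoxc6 and Hoxc8. The window is from RefSeq (GRCm38.p6), 250 bases before to 50 after the start, with the homeodomain core TAAT in capitals.
Hoxc4 (chr15:103034145-103034444, plus strand): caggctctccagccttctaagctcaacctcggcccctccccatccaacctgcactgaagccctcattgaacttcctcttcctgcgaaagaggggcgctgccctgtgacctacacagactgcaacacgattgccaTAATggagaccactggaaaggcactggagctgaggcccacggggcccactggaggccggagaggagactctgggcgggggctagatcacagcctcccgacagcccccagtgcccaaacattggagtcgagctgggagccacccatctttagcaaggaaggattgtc
Searched on both strands, TAAT occurred 1 time, at -116 from the start, and 58% of 32851 promoter windows of the same length hold it. The retinoid half-site AGGTCA occurred 1 time, at -146, and is held by 16.3% of the windows. The Cdx motif TTTATG, held by 11.9%, and the Hox and Pbx motif TGATTNAT, held by 3.22%, did not occur. The window has 9 CG pairs, and 56.5% of all windows have that many or fewer. A match is a string of letters and no evidence of binding.

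Genes that work with or on Hox genes are given from lists of cofactors, activators and silencers. Of 8 Hox cofactor genes analysed, of the Pbx, Meis and Pknox families, none passed over 6 arrays, and the median difference was 0.15. At an unadjusted p under 0.05 by limma 2 were higher, Pbx3 and Pbx4, as were 3.96% of all genes. Pbx3 read 10.945, 11.36 and 10.97 in ascending replicates 1, 2 and 3, against 10.70, 10.36 and 10.59 in descending aorta, a difference of 0.54 ± 0.14 (SE) with an adjusted p of 0.53 by limma. Pbx4 differed by 0.35 ± 0.12 (SE), and for both genes all 3 ascending arrays lay above the descending arrays, as they did for 5.87% of all genes. Of 9 genes that activate Hox transcription, among them the Cdx, retinoic acid receptor and trithorax genes, none passed (0 also at an unadjusted p under 0.05 by limma) and the median was -0.07. Of 12 Polycomb genes, whose products keep Hox genes silent, none passed either, at a median of -0.09. At an unadjusted p under 0.05 by limma 1 was lower, Ezh2, where 5.33% of all genes were lower. The groups did not overlap for 4 of the 12, against 14.8% of all genes. Ezh2 and Ezh1, the histone methyltransferases of the complex, differed by -0.31 ± 0.10 and -0.17 ± 0.08 (SE), Rnf2, a ubiquitin ligase subunit, by -0.19 ± 0.09, and Bmi1, its partner, by 0.36 ± 0.16. Leaving out ascending replicate 3 gave no gene of these 3 lists that passed limma's adjusted test.

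The HoxC genes shared their array pattern with genes outside the Hox clusters. The mean centred profile was taken over the 6 members, Hoxc4 to Hoxc10, whose descending mean exceeded the mean ceiling of the descending arrays, so the descending level chose them, and Hoxc10 passed at 6.34. It was -1.09, -1.20 and 0.70 on ascending replicates 1, 2 and 3, and 0.67, 0.50 and 0.42 on descending replicates 1, 2 and 3. Among 465 other genes with an SD of at least 0.5 over the arrays, the 5 closest were Aldh1a3, Ntn1, Svep1, Col8a1 and Lrrn3, with Pearson's r from 0.994 to 0.998 over 6 arrays. In all, 94 of the 465 had an r above 0.95. A profile over all 9 members, an alternative chosen after seeing the data, had the same 5 closest genes, with r from 0.994 to 0.997. This is no independent check. The added Hoxc11, Hoxc12 and Hoxc13 had SDs of 0.067 to 0.11 over the arrays and could hardly change the profile. Hoxc5, Hoxc6 and Hoxc8, with SDs of 1.45 to 1.55, carried it. They are a description only: the profile sets ascending replicates 1 and 2 against the other 4 arrays, and all genes were read from the same 6 arrays. Aldh1a3, a retinoic acid synthesising enzyme, read 7.65, 7.43 and 8.95 in ascending replicates 1, 2 and 3, against 8.92, 8.76 and 8.72 in descending aorta. Ntn1, which encodes the guidance protein netrin-1, read 7.505, 7.39 and 9.04 in ascending aorta, against 9.17, 9.06 and 8.94 in descending aorta. Col8a1, a short-chain collagen of vessel walls, read 8.15, 7.97 and 10.1 in ascending aorta, against 10.2, 10.2 and 9.92 in descending aorta. Svep1, a matrix adhesion protein gene, read 8.77, 8.61 and 10.06 in ascending aorta, against 10.16, 9.94 and 9.99 in descending aorta. In Aldh1a3, Ntn1, Col8a1 and Svep1, as in Hoxc4, Hoxc6 and Hoxc8, ascending replicate 3 lay within 0.15 of the descending mean. Lrrn3, which encodes a leucine-rich repeat protein of neurons, read 6.75, 6.58 and 8.52 in ascending aorta, against 8.32, 8.19 and 7.99 in descending aorta. In Lrrn3, as in Aldh1a3 and Hoxc5, ascending replicate 3 was the highest array.

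Paralogs of the same number in the other clusters are given beside the HoxC genes, all without ascending replicate 3 and all from the same 5 arrays. In paralog group 6 the difference was -2.99 ± 0.13 for Hoxc6, -2.25 ± 0.13 for Hoxa6 and -0.78 ± 0.11 for Hoxb6 (SE). In group 5 it was -2.68 ± 0.27 for Hoxc5, -1.10 ± 0.31 for Hoxa5 and -1.14 ± 0.24 for Hoxb5. Of the latter 2, Hoxb5 passed (adjusted p = 0.0361 by limma) and Hoxa5 did not (adjusted p = 0.0975 by limma). In group 8 it was -2.79 ± 0.12 for Hoxc8 and -1.24 ± 0.12 for Hoxd8. Hoxd8 read 6.29 and 6.04 on ascending replicates 1 and 2, both below the ceiling as for Hoxc6, so the size of the fall is uncertain in both genes. In group 9 Hoxc9 differed by -0.38 ± 0.14, Hoxa9 by -1.66 ± 0.09 (adjusted p = 0.000245 by limma), Hoxb9 by -0.58 ± 0.11 and Hoxd9 by -0.17 ± 0.12. In group 4 Hoxc4 differed by -1.16 ± 0.13, Hoxd4 by -0.42 ± 0.18 (adjusted p = 0.279 by limma), Hoxa4 by 0.15 ± 0.13 and Hoxb4 by 0.10 ± 0.10. Differences between paralogs were not tested, and probe sets of close paralogs can share sequence. Paralogs nearer the ceiling in descending aorta also had less room to fall. The descending means were 6.96 for Hoxc9, 6.94 for Hoxd9, 7.17 for Hoxd4 and 7.41 for Hoxd8, against 8.56 for Hoxa9.

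**Figure D4:**
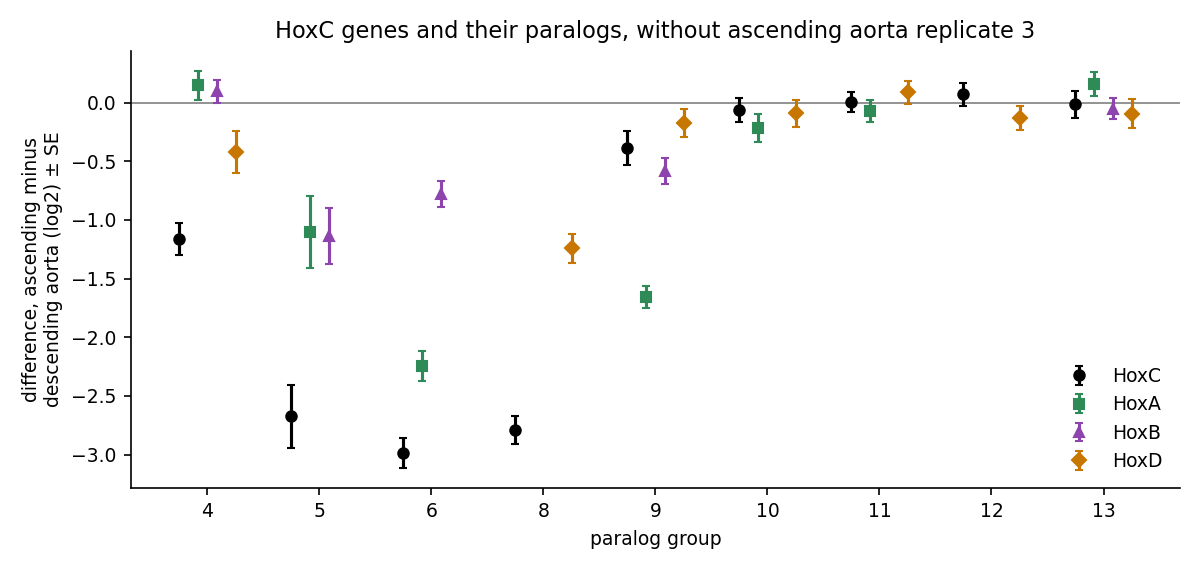
Difference between ascending and descending aorta without ascending replicate 3 (y axis, log2, ascending minus descending, bars are the SE of limma's fit) for HoxC genes and the measured paralogs in HoxA, HoxB and HoxD, by paralog group (x axis). HoxC lies at -1.16 in group 4, where HoxD lies at -0.42, HoxA at 0.15 and HoxB at 0.10, and at -0.38 in group 9, where HoxA lies at -1.66.

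Markers of other cell types were read from fixed lists, and none passed limma's adjusted test over 6 arrays, as no gene did. Without ascending replicate 3, 5 of 6 mesothelial and 2 of 7 heart muscle markers passed as higher, where 2.07% of all genes did. Of the 6 endothelial markers 4 passed as lower, where 2.61% of all genes did. None in these 3 lists passed the other way. The largest differences were 2.70 for Upk1b, 2.23 for Tnnt2 and -2.48 for Emcn, near the size of those of Hoxc6 and Hoxc8. Of 6 mesothelial markers, all had a higher mean in ascending aorta, and their summed linear signal was 3847 to 10460 in ascending, where replicate 3 was lowest, and 2787 to 3557 in descending aorta. All 7 heart muscle markers had a higher mean in ascending aorta, with summed signals of 4793 to 8536 in ascending and 3343 to 4318 in descending aorta, and replicate 3 was again the lowest ascending array. All 6 endothelial markers had a lower mean, with sums of 10228 to 16043 in ascending, where replicate 3 was highest, and 16505 to 18699 in descending aorta. Of 7 autonomic neuron markers 6 were measured and 5 had a lower mean, with sums of 1796 to 2052 in ascending, lowest in replicate 3, and 2057 to 2412 in descending aorta, while the sixth, Elavl4, had a higher mean in ascending aorta. No marker of these 4 lists was below the ceiling on all arrays. The part of such cells, and of cartilage and spinal cord cells, in the HoxC differences was not tested. Cartilage and sclerotome markers went both ways, and their summed signal was 2495 to 2710 in ascending and 2184 to 2650 in descending aorta. Col2a1, the main cartilage collagen, read 8.49, 8.37 and 9.05 in ascending replicates 1, 2 and 3, against 9.03, 8.84 and 8.83 in descending aorta, low on the same 2 arrays as Hoxc4 to Hoxc8. Without ascending replicate 3 Col2a1 fell by 0.47 (adjusted p = 0.0441 by limma), Acan and Col9a1 rose by 0.84 and 0.66 (adjusted p = 0.0436 and 0.0423 by limma), and the sclerotome gene Pax1 and the cartilage regulator Sox9 differed by -0.46 and -0.24 without passing. Spinal cord markers summed to 813 to 1604 in ascending and 859 to 918 in descending aorta. Of these, Isl1 read 8.82, 9.93 and 7.74 in ascending replicates 1, 2 and 3, against 8.08, 7.83 and 7.86 in descending aorta. Without ascending replicate 3 it rose by 1.45 (adjusted p = 0.026 by limma). The other spinal cord markers then differed by -0.095 to 0.13 and none passed, so the higher sums reflect Isl1 and not the list as a whole. The cartilage gene Matn1 and the motor neuron gene Mnx1 were below the ceiling on all 6 arrays. Of 5 macrophage markers 4 had a lower mean in ascending aorta, with sums of 2085 to 4364 in ascending and 3417 to 3874 in descending aorta. Over 6 arrays the median difference was 0.07 for skeletal muscle, 0.0008 for lung and gut epithelium, -0.01 for urogenital mesoderm and -0.33 for erythroid markers.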

How the data were processed

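The deposited values are log2 expression of 35556 probe sets on 6 arrays, produced by the authors with RMA and Partek 6.6, per the submitters' processing notes. The sources used here give neither settings nor genome build. Values from 2.53 to 14.6 place them on a log2 scale. Since RMA makes array distributions alike, a shift shared by most genes cannot be seen. Probe sets were named from the platform annotation: 21789 had 1 symbol, 1621 several and 12146 none. The probe set with the highest mean was kept per gene, and Entrez numbers matched RefSeq symbols for 19856 of 19938 genes and all 9 HoxC genes. Hotair and Hnrnpa1 were not analysed here.

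Segments were compared with lmFit and eBayes of limma 3.58.1 (R 4.3.3) over all genes, two-sided, with Benjamini-Hochberg adjustment and a threshold of 0.05. Exact permutation tests used scipy 1.17.1. The fit was tested on simulated data. The HoxC genes and the lists were chosen with earlier results of these data known. The text names all HoxC genes, up to 4 genes of each list by smallest p (outside the flanking genes, from those whose groups did not overlap), and the 5 genes most like the HoxC profile. Smug1, Mir615, the other miR-196 genes, the paralogs and single cell type markers lie outside this rule and were named with their values known. Alternatives were another scaling (quantile, median), filters at the 25th and 50th percentile, other probe set rules, a variance trend, array weights, a replicate block and leaving out arrays.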

Additional observations from a re-analysis of the deposited data

How the results depend on the processing

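Over 15 or 16 alternatives each, the differences of Hoxc4, Hoxc5, Hoxc6 and Hoxc8 stayed below 0, at -1.16 to -0.55, -2.68 to -0.83, -2.99 to -1.40 and -2.79 to -1.36. Among these alternatives they passed the test only where ascending replicate 3 was left out, alone or with descending replicate 1; the cause was not tested. Leaving out each array in turn gave 0 to 933 genes that passed and HoxC medians of -0.38 to -0.078. Leaving out both arrays gave 469 genes. Every other alternative gave 0 genes. The HoxC median was -0.47 with the filter at the 25th percentile, which left 8 of the genes, and -1.74 at the 50th, which left 2. Hoxc9 and 3 of the 5′ members changed sign. Leaving out each array in turn gave -0.38 to 0.013 for Hoxc9, -0.063 to 0.079 for Hoxc10, -0.10 to 0.0057 for Hoxc11 and -0.076 to 0.077 for Hoxc13. Hoxc10 was at -0.018 with array weights. With both arrays left out it was at -0.048 and Hoxc11 at 0.019. Same-numbered arrays did not deviate together from their group means (correlations of -0.08, -0.05 and 0.02). With 3 arrays in each group, and ascending replicate 3 apart from its group, this cannot show whether the numbers pair samples. With the replicate block 0 genes passed, the HoxC median was -0.16 and the lowest adjusted p of a HoxC gene was 0.602 by limma. No depth or detection call limits these values, but levels near the olfactory receptor ceiling hold little signal.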
